A study of Mus musculus with 240 samples.

Results

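Trp53, which encodes the tumour suppressor p53, and 6 genes that act on it or beside it were followed through a mouse model of glioma that starts in oligodendrocyte precursor cells (OPCs), the dividing glial progenitors of the brain. The 7 genes were taken by symbol from the deposited count table: the p53 family genes Trp53 and Trp73, the p53 inhibitors Mdm2 and Mdm4, Cdkn2a, and the damage kinases Atm and Chek2. Each symbol was present once, so they are 7 of 34623 genes. The study sequenced polyadenylated RNA from tdTomato-positive OPCs cut from brain sections by laser capture. CKO mice carried the genotype Trp53-/- Nf1-/-, so that p53 and the Ras inhibitor neurofibromin were both deleted, and WT mice were wild-type at both genes, also tdTomato-positive and also timed from tamoxifen. Bulk libraries of 10 µm sections came from 7 CKO and 5 WT animals at 12 days after the start of tamoxifen (dpi), 7 CKO and 5 WT animals at 90 dpi, and 7 tumours and 6 WT animals at 150 dpi, the tumours having the CKO genotype. Small libraries of 8 µm sections came from CKO cells alone: 112 libraries of 10 captured cells and 80 pool-and-split controls, in which captured cells were pooled and then split, at 12 and 90 dpi. The labels name neither the promoter that drives the recombinase, nor the deleted exons, nor the age of the animals. The bulk groups held 2 to 4 animals of each sex.

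The p53 protein is a transcription factor that halts division or starts cell death after DNA damage or oncogene signalling, and it is kept low mainly at the level of the protein. Mdm2 is the ubiquitin ligase that sends p53 to the proteasome, Mdm4 binds and silences it, and Mdm2 is itself a p53 target. Cdkn2a encodes Arf, which blocks Mdm2, and from another first exon Ink4a, which blocks the cyclin D kinases. Atm and Chek2 phosphorylate p53 after double-strand breaks, and Trp73 encodes the related factor p73. In glioma, loss of p53 or of Arf and Ink4a, or gain of MDM2 or MDM4, are recurrent routes out of this control.

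Bulk libraries held 93694 to 23199230 counts, 10-cell libraries 1639385 to 6489275 and pool-and-split libraries 1906783 to 5160788. In 11 of the 37 bulk animals 2 libraries were summed. Animal WT_21167 at 90 dpi stood apart with 93694 counts, against at least 2316842 counts in each of the others, and the genotype differences of 90 dpi are given with and without it. The 14 OPC markers summed to between 2970 and 5801 counts per 1000000 counts (CPM) in the 30 animals without a tumour, with no gap between CKO and WT, and to between 5441 and 15338 CPM in the tumours. Neuron markers summed to between 7464 and 16439 CPM in the animals without a tumour, above their OPC markers, and to between 315 and 1600 CPM in the tumours, so the bulk captures carried RNA of other cells. In bulk samples, fewer cells of a type and less RNA per cell cannot be told apart.

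Levels of different genes were compared as CPM per kilobase of exon. In WT animals at 150 dpi Mdm4 was the highest of the 7, at 21.2 ± 3.42 CPM per kilobase (SD, n = 6), then Mdm2 at 17.7 ± 1.32 and Trp53 at 6.43 ± 2.04. Atm stood at 4.43 ± 0.652 and Chek2 at 1.76 ± 0.345. Trp73 and Cdkn2a lay at 0.0246 ± 0.0603 and 0.0231 ± 0.0365, close to absence. Neighbours in this order lay within each other's spread in 3 places, Mdm4 with Mdm2, Trp53 with Atm, and Trp73 with Cdkn2a. In the tumours the order was Mdm2 at 17.2 ± 3.12 CPM per kilobase (SD, n = 7), Mdm4 at 15.7 ± 2.33, Trp53 at 11.0 ± 4.44, Cdkn2a at 6.69 ± 4.86, Atm at 6.40 ± 2.53, Chek2 at 4.92 ± 1.79 and Trp73 at 0.157 ± 0.227. Cdkn2a thus went from the bottom of the order to the level of Atm and Trp53, and the spreads of each neighbouring pair down to Chek2 overlapped.

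**Figure D1:**
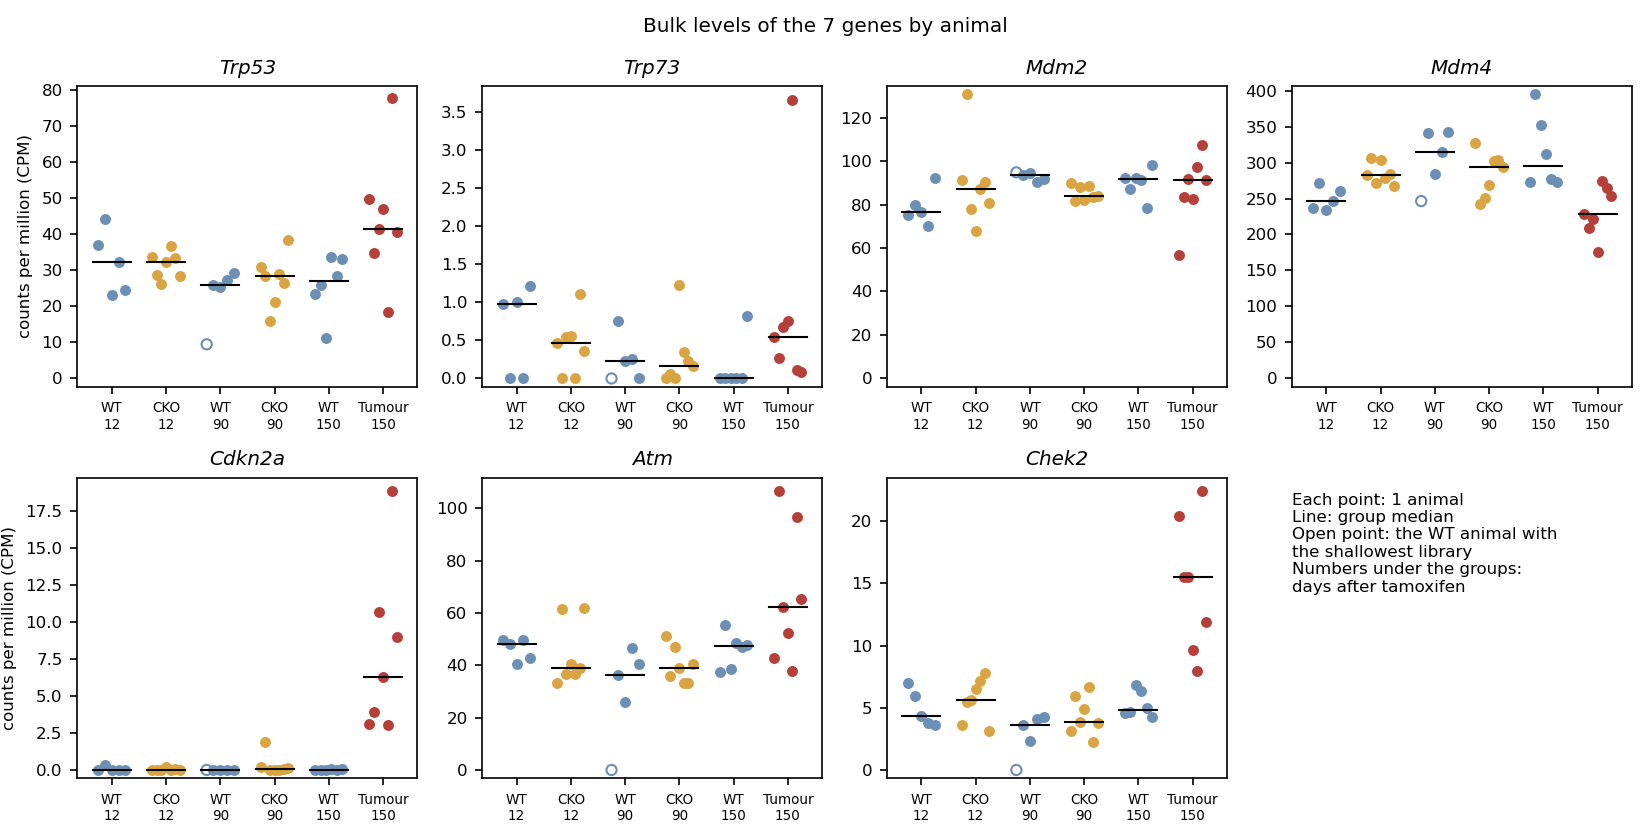
Bulk level of each of the 7 genes in CPM (vertical axes from 0, linear, 1 panel per gene) against group (WT and CKO at 12 and 90 dpi, WT and tumour at 150 dpi), with 1 point per animal, a line at the group median and an open point for WT_21167. Cdkn2a is near 0 in every group but the tumours, which lie at 3.01 to 18.8 CPM, and all tumours lie above all WT animals of 150 dpi for Chek2.

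Before tumours formed, no gene of the 7 passed the test between genotypes or over time. At 12 dpi 0 of 7 passed edgeR's quasi-likelihood test at an adjusted p under 0.05, beside 0.0183% of the 16349 genes tested, and at 90 dpi 0 of 7, beside 0.0489%. Over time, 0 of 7 passed from 12 to 90 dpi in CKO animals, where 0% of all genes did, in WT animals (0.00612%), and in WT animals from 90 to 150 dpi (0.0183%). The change of the genotype difference from 12 to 90 dpi was also called for 0 of 7, and for 0% of all genes. Where 0 genes were called, in CKO animals over time and in the change of the genotype difference, 696 and 589 genes had an unadjusted p under 0.05, and DESeq2 called 4 and 9. Of the 7, Cdkn2a had an unadjusted p under 0.05 in CKO against WT at 90 dpi, in CKO over time and in the change of the genotype difference, and Mdm4 in WT from 12 to 90 dpi. DESeq2 called 0 of the 7 in each of these comparisons. Cdkn2a passed the count filter through the tumours, where it is high. At 12 dpi it gave 3 counts over all WT animals and 6 over all CKO animals. In fits of the compared premalignant groups alone it was left untested, so its lack of a call here says little.

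In tumours 5 of the 7 genes changed, a share read beside 46.2% of all genes tested, so a tumour changed a large part of all genes. Against WT animals of 150 dpi Cdkn2a, Chek2, Trp53 and Atm rose, where 24.3% of all genes did, and Mdm4 fell, where 21.9% did. Mdm2 and Trp73 did not pass, although DESeq2 called Trp73 in both tumour comparisons, at 2.92 against WT (adjusted p = 0.0489) and 2.54 against CKO (adjusted p = 0.0478). For Cdkn2a and Chek2 all 7 tumours lay above all 6 WT animals, as for 6.72% of all genes. Against CKO animals of 90 dpi, which carry the same genotype, the same 5 genes passed in the same directions, beside 49.1% of all genes (26.4% higher and 22.6% lower). Cdkn2a and Chek2 again lay above every animal of the other group, as 6.77% of all genes did. These comparisons share the tumour samples. The genotype difference itself was larger at 150 than at 90 dpi for 1 of the 7, Chek2, beside 30% of all genes called and 14.2% called in that direction.

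**Figure D2:**
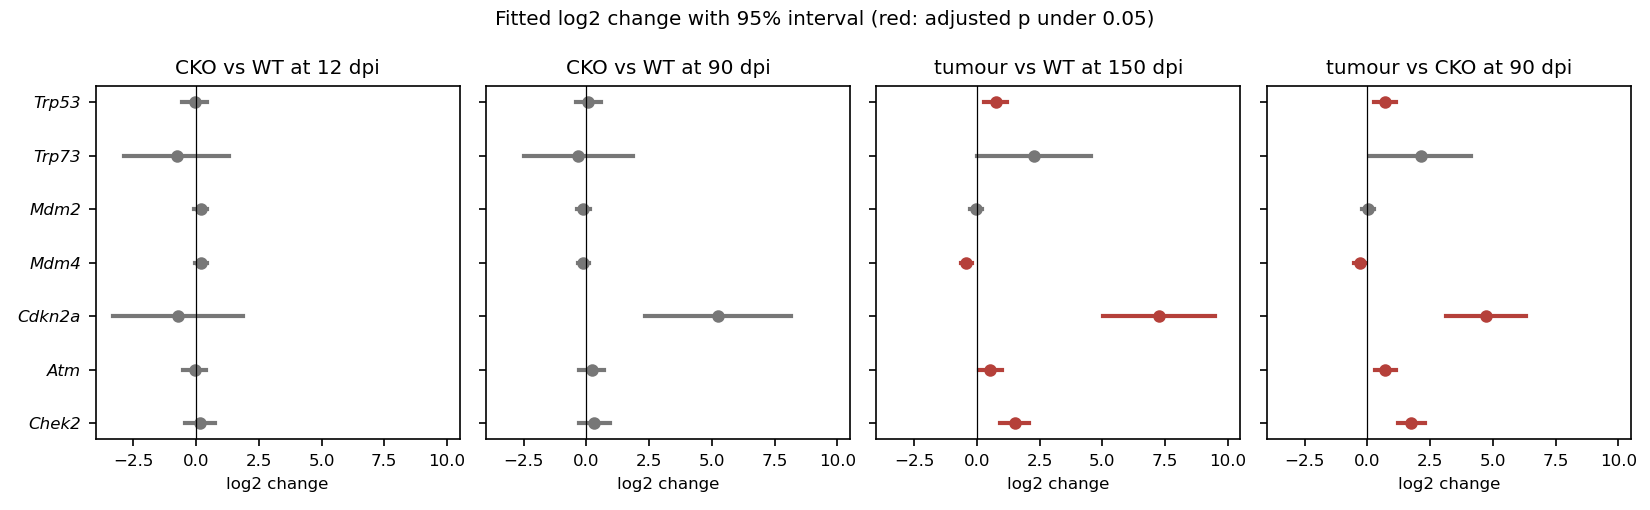
Fitted log2 change of each gene (points) with its 95% interval (lines) in 4 panels: the genotypes at each premalignant time, then tumours against WT and against CKO animals of 90 dpi. Red marks an adjusted p under 0.05. No gene is red in the premalignant panels and 5 are in each tumour panel, with Mdm4 on the lower side; the widest intervals belong to Cdkn2a and Trp73, the genes with the fewest counts.

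Trp53 (ENSMUSG00000059552, GRCm38 chr11:69580359-69591873, plus strand) was counted in every bulk animal of both genotypes. At 12 dpi the WT animals held 37.2, 44.2, 23.1, 32.2 and 24.6 CPM and the CKO animals between 26.3 and 36.9, with a median of 32.3. The CKO animals lay inside the WT range, and the log2 difference was -0.06 (SE 0.25). At 90 dpi the WT animals held 9.48, 26.0, 25.5, 27.2 and 29.4 CPM, the lowest being the shallow WT_21167, and the CKO animals between 15.9 and 38.5, with a median of 28.4. The groups overlapped, with a log2 difference of 0.07 (SE 0.25), and of 0.01 without WT_21167. The counts are per gene and do not tell which exons were read, so a Trp53 level equal to that of WT does not check the deletion. At the study's last time point the WT animals held 11.3 to 33.7 CPM with a median of 27.1, and the tumours 18.5 to 77.8 with a median of 41.6. All tumours but Tumor_21256 lay above every WT animal. The log2 change was 0.74 (SE 0.24, adjusted p = 0.0097), a mean of 44.3 ± 18.0 CPM (SD, n = 7) against 26.0 ± 8.24 (SD, n = 6). Compared with CKO animals of 90 dpi it was 0.70 (SE 0.22, adjusted p = 0.0089), with 5 of 7 tumours above every CKO animal. The rise in genotype difference from 90 to 150 dpi, 0.68 on the log2 scale (SE 0.34), was not called (adjusted p = 0.140), nor without WT_21167, at 0.73 (adjusted p = 0.113).

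Trp73 (ENSMUSG00000029026, chr4:154056253-154140208, minus strand), whose p73 proteins share targets with p53, was barely detected. WT animals of 12 dpi held 0.973, 0, 1.00, 0 and 1.22 CPM, and CKO animals 0 to 1.11 with a median of 0.464. At 90 dpi WT animals held 0, 0.749, 0.231, 0.257 and 0 CPM, and CKO animals 0 to 1.23 with a median of 0.160. Both pairs of groups overlapped, and the log2 difference at 90 dpi was -0.32 (SE 1.10) with or without WT_21167. In WT animals of 150 dpi 1 animal, WT_22064, held all 12 counts, at 0.817 CPM, and the other animals held 0. The tumours ranged from 0.0847 to 3.66 CPM with a median of 0.549, and all 7 had counts. The log2 change of 2.28 (SE 1.16) was not called (adjusted p = 0.107), and the ratio of summed rates was 1.57 with a 95% counting interval of 0.847 to 3.17. The value depended on single animals: without WT_22064 the fitted change was 6.32 (adjusted p = 0.0176), and without Tumor_21256, which held 3.66 CPM against 0.754 in the next tumour, it was 1.21 (adjusted p = 0.360). Against CKO animals of 90 dpi the change was 2.13 (SE 1.03, adjusted p = 0.0843), and 1.03 without Tumor_21256 (adjusted p = 0.365), while it was called without CKO_22149 (2.66, adjusted p = 0.0351) or Tumor_21349 (2.49, adjusted p = 0.0431). Exons of the antisense gene Trp73os share 280 bases with Trp73, and whether the counting used strand is not given in the sources used here, so reads of the pair may not be separated.

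Mdm2 (ENSMUSG00000020184, chr10:117688875-117710758, minus strand) had no called change in any comparison. At 12 dpi WT animals held 74.9, 79.9, 76.7, 69.9 and 92.2 CPM, and CKO animals 67.8 to 131 with a median of 86.9. The highest CKO value, in CKO_21725, lay above all others, and the groups overlapped. At 90 dpi WT animals held 94.8, 93.4, 94.4, 90.4 and 91.8 CPM, and CKO animals 81.8 to 89.8 with a median of 84.1. Here all 7 CKO animals lay below all 5 WT animals, as the groups did for 0.758% of all genes in either direction. The gap was small, at -0.12 on the log2 scale (SE 0.14), and not called (adjusted p = 1), and was -0.11 without WT_21167. At 150 dpi WT animals held 78.2 to 98.1 CPM with a median of 91.5, and tumours 56.9 to 108 with a median of 91.5. The groups overlapped, and the log2 difference of -0.04 had a 95% interval of -0.29 to 0.21, which is the range of change these samples allow. The difference from CKO animals of 90 dpi was 0.03 (SE 0.12). These are the same tumours in which Trp53 and Cdkn2a rose.

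Mdm4 (ENSMUSG00000054387, chr1:132959484-133030561, minus strand) was the only member that fell in the tumours. At 12 dpi WT animals held 236, 272, 235, 247 and 261 CPM, and CKO animals 267 to 306 with a median of 283. The CKO animals lay at or above the upper end of WT with some overlap, and the log2 difference of 0.20 (SE 0.12) was not called. At 90 dpi WT animals held 246, 341, 284, 315 and 343 CPM, and CKO animals 243 to 327 with a median of 294. The groups overlapped, at a log2 difference of -0.12 (SE 0.12), or -0.17 without WT_21167. At 150 dpi WT animals held 273 to 395 CPM with a median of 295, and tumours 175 to 274 with a median of 228. All tumours but Tumor_21256 lay below every WT animal. The log2 change was -0.42 (SE 0.11, adjusted p = 0.0021), a mean of 232 ± 34.5 CPM (SD, n = 7) against 314 ± 50.5 (SD, n = 6). Against CKO animals of 90 dpi it was -0.30 (SE 0.11, adjusted p = 0.0199), with 4 of 7 tumours below every CKO animal. This second call was lost in 5 of 7 alternative settings: with RLE size factors in place of TMM at -0.13 (adjusted p = 0.310), with DESeq2 at -0.13 (0.278), with a minimum mean of 10 CPM at -0.18 (0.156), without a filter at -0.32 (0.0564) and in the compared groups alone at -0.30 (0.126). It was also lost without CKO_20642 (0.0506) or Tumor_16844 (0.0611). With RLE size factors the median over all genes tested moved from 0.12 to 0.29. The change against WT stayed called with these size factors, at -0.27 (adjusted p = 0.0478).

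Cdkn2a (ENSMUSG00000044303, chr4:89274471-89294653, minus strand) had the largest change of the 7. Over whole groups it gave 3 counts in the 5 WT animals of 12 dpi, 6 in the 7 CKO animals of 12 dpi, 0 in the 5 WT animals of 90 dpi, 40 in the 7 CKO animals of 90 dpi, 2 in the 6 WT animals of 150 dpi and 1465 in the 7 tumours. All tumours held it: from 14 counts in Tumor_21256 to 533 in Tumor_21349, or from 3.01 to 18.8 CPM with a median of 6.32. No animal without a tumour reached the lowest tumour, the nearest being CKO_20647 of 90 dpi at 1.90 CPM. The ratio of summed rates was 186 for tumours against WT of 150 dpi, with a 95% counting interval of 51.5 to 1541 because WT held only 2 counts, and 27.2 against CKO animals of 90 dpi, with an interval of 19.8 to 38.2. Of the CKO counts 31.0 came from 1 library of CKO_20647, and without that animal the fitted log2 change against CKO went from 4.73 to 6.33. These intervals cover counting error only. edgeR called both, with an adjusted p of 3.03e-06 and of 1.31e-05. Cdkn2a passed the count filter through the tumours, where it is high, so the filter and these calls rest on the same tumour values. The gene-level counts do not separate the Arf and Ink4a transcripts.

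In premalignant CKO animals Cdkn2a was seen in 4 of 7 at 90 dpi, with a median of 0.0767 CPM and a next highest value of 0.199 after CKO_20647. The summed rate of CKO animals was 6.44 times higher at 90 than at 12 dpi, with a 95% counting interval of 2.71 to 18.6, but this rested on 1 library. CKO_20647 had 2 libraries, 1 with 31.0 counts of Cdkn2a, or 3.75 CPM, and the other with 0. That same pair differed 3.92-fold in Mdm2, 130 against 33.0 CPM, and 3.04-fold in Chek2, but 1.12-fold in Trp53. In edgeR's test neither CKO against WT at 90 dpi (adjusted p = 0.544, or 0.530 without WT_21167) nor CKO at 90 against 12 dpi (adjusted p = 1) was called. Without CKO_20647 the fitted log2 change from 12 to 90 dpi went from 2.54 to 0.75.

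Of Cdkn2a and Chek2, the only members whose groups did not overlap in tumours against WT, the 200 bases upstream of a start are shown, because both held the letters of an E2F site. E2F factors drive genes of S phase and are released when the cyclin D kinases are active. RefSeq promoter windows on GRCm38.p6 matched all 7 genes, with 10 starts. The letters TTTCCCGC, TTTGGCGC, TTTCGCGC and TTTGCCGC were searched on both strands in the 250 bases before each start. They were found in 2 of the 10 windows, 1 of Cdkn2a and 1 of Chek2, and in 1.86% of 32851 windows of all genes. The inner start of Cdkn2a, which serves Ink4a, held none of these letters. A p53 response element, searched as a pair of exact consensus half-sites, was found in 0 of the 10 and in 0.0639% of all windows. Elements outside these 250 bases, such as those in introns, were not searched. The 0 therefore does not show that a gene lacks one. The capitals mark the match, which begins 99 bases before the RefSeq start of Cdkn2a and 152 before that of Chek2. The stretches shown stop earlier, at the gene ends annotated in the count table, so these distances run past the last base shown. A match of letters is a description and does not show binding.
Cdkn2a upstream, chr4:89294654-89294853, minus strand: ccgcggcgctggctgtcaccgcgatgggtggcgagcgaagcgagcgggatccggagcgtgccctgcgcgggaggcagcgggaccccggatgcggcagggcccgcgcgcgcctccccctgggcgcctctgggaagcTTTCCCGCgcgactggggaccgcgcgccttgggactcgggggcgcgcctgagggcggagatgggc
Chek2 upstream, chr5:110839779-110839978, plus strand: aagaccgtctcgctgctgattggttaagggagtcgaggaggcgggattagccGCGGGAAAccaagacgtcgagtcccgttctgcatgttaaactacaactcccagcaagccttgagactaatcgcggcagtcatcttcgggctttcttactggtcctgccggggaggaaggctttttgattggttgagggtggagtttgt

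Atm (ENSMUSG00000034218, chr9:53439149-53536740, minus strand), the kinase that senses double-strand breaks, rose modestly. At 12 dpi WT animals held 49.5, 48.3, 40.5, 49.6 and 42.9 CPM, and CKO animals 33.3 to 61.9 with a median of 38.9. At 90 dpi WT animals held 0, 36.4, 25.9, 46.5 and 40.7 CPM, the 0 being WT_21167, and CKO animals 33.1 to 51.3 with a median of 39.1. The groups overlapped at both times, and the log2 difference at 90 dpi was 0.20, or 0.11 without WT_21167. At 150 dpi WT animals held 37.5 to 55.4 CPM with a median of 47.3, and tumours 37.6 to 106 with a median of 62.2. Of the tumours, 4 of 7 lay above every WT animal and the others among them. The log2 change of 0.54 (SE 0.23) was just called, at an adjusted p of 0.0498. It lost the call without Tumor_16839, the highest tumour, at 0.40 (adjusted p = 0.140), and in 14 of the 37 fits that each left out 1 animal. It was also lost without a filter (adjusted p = 0.0692), without the sex term (0.0520), with the deepest library of each animal (0.0628) and in the compared groups alone (0.0918). Against CKO animals of 90 dpi the change was 0.72 (SE 0.22, adjusted p = 0.0060), with 5 of 7 tumours above every CKO animal.

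Chek2 (ENSMUSG00000029521, chr5:110839979-110874145, plus strand) encodes the checkpoint kinase that Atm activates. At 12 dpi WT animals held 7.01, 5.96, 4.35, 3.77 and 3.65 CPM, and CKO animals 3.12 to 7.83 with a median of 5.59. At 90 dpi WT animals held 0, 3.58, 2.31, 4.06 and 4.30 CPM, the 0 being again WT_21167, and CKO animals 2.23 to 6.67 with a median of 3.84. Both pairs of groups overlapped, with log2 differences of 0.16 (SE 0.30) and 0.32 (SE 0.32), the second being 0.29 without WT_21167. At 150 dpi WT animals held 4.29 to 6.80 CPM with a median of 4.83, and tumours 7.96 to 22.4 with a median of 15.5. Every tumour lay above every WT animal. The log2 change was 1.50 (SE 0.30, adjusted p = 7.08e-05), or 2.83-fold with a 95% interval of 0.92 to 2.08 on the log2 scale, a mean of 14.8 ± 5.36 CPM (SD, n = 7) against 5.28 ± 1.04 (SD, n = 6). Against CKO animals of 90 dpi it was 1.76 (SE 0.27, adjusted p = 1.58e-06). The genotype difference was larger by 1.18 on the log2 scale (SE 0.42, adjusted p = 0.0312) at 150 than at 90 dpi, and by 1.21 without WT_21167 (adjusted p = 0.0270). That call was lost without Tumor_16713, WT_22254 or WT_22255, at 1.08, 1.14 and 1.11.

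The counts of Chek2 and Mdm2 need care, because part of their transcripts is shared with many other genes. In the annotation of GRCm38 used here (GENCODE M21), stretches of at least 60 bases at 95% identity or more were shared by Chek2 transcripts with 527 other genes, by Trp53 transcripts with 487, by Mdm2 with 153, by Mdm4 with 15, by Trp73 with 1 and by Cdkn2a and Atm with 0. For Trp53 the sharing came almost wholly from 1 noncoding transcript, since its protein-coding transcripts shared a stretch with 1 other gene. For Chek2 too, 1 noncoding transcript shared a stretch with 506 other genes. The protein-coding transcripts of Chek2 shared a stretch with 30 other genes, those of Mdm2 with 55 and those of Mdm4 with 3.

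The authors' counts were estimates that split reads between genes, which can leave values that are not whole. Chek2 had values that were not whole (tolerance 0.02) in 45 of the 47 bulk libraries that detected it and in 182 of 192 small libraries. For all genes together 47.7% of bulk and 33.5% of small values above 0 were not whole. Trp53 had such values in 11 of 48 bulk and 106 of 148 small libraries, Mdm2 and Mdm4 in 44 of 48 bulk libraries each, Atm in 38 of 47, and Cdkn2a and Trp73 in none. In small libraries values were not whole in 96 of the 165 that detected Mdm2, 47 of 166 for Mdm4 and 3 of 14 for Atm. Chek2 thus had the largest share of these genes in small libraries. In bulk libraries such values were not particular to Chek2, nor to genes for which a shared stretch was found, since none was found for Atm. How many Chek2 counts came from shared stretches was not tested, since the deposited values are per gene.

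Each tumour was sequenced as 2 libraries. For Trp53 the libraries of a tumour differed by a median of 1.22-fold and at most 1.68-fold, and the highest tumour was 4.21 times the lowest. For Cdkn2a the libraries differed by a median of 1.27-fold and at most 2.82-fold, with 6.26 times between the extreme tumours. For Chek2 these values were 1.27-fold, 2.07-fold and 2.82 times, and for Atm 1.05-fold, 1.35-fold and 2.83 times. The extreme tumours differed by 1.56 times for Mdm4 and 1.89 times for Mdm2. For Trp73, with few counts, the libraries of a tumour differed by a median of 6.13-fold. A range over 7 tumours and a median over pairs are different measures, and no test compared them. The tumour Tumor_21349 was highest for Trp53, Cdkn2a, Chek2 and Mdm2, and Tumor_21256 was lowest for Trp53, Cdkn2a, Chek2 and Atm and highest for Mdm4 and Trp73. Tumor_21256 also had the lowest summed proliferation genes, 680 CPM, and the highest summed neuron markers, 1600 CPM, while Tumor_21349 had 3460 and 319. Of the libraries of Tumor_21256, 1 held 5.43 CPM of Chek2, inside the WT range, and the other 11.3.

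**Figure D3:**
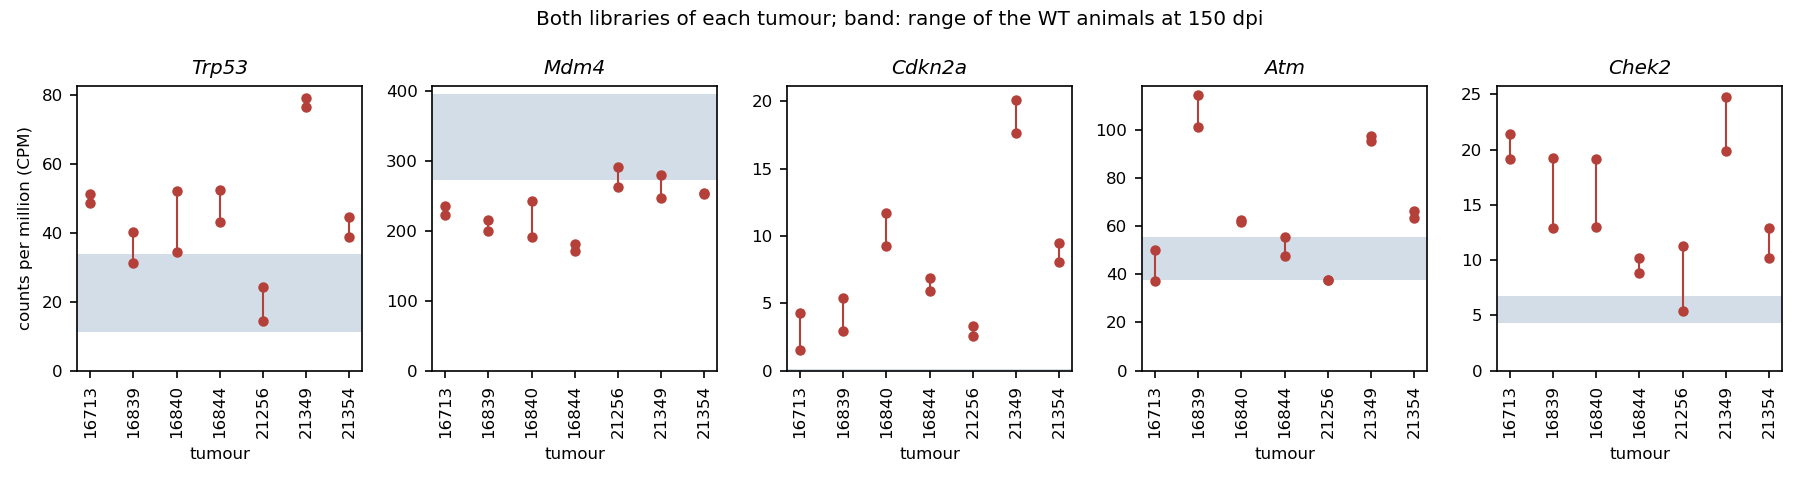
Level in CPM (vertical axes from 0, linear) of Trp53, Mdm4, Cdkn2a, Atm and Chek2 in both libraries (joined points) of each of the 7 tumours, with a band for the range of the 6 WT animals of 150 dpi. The extreme tumours differ 6.26 times for Cdkn2a and 4.21 times for Trp53. For Trp53 both libraries of Tumor_21256 lie inside the WT band, at 14.4 and 24.2 CPM. For Chek2 its lower library does, at 5.43 CPM. The lowest Cdkn2a library is of Tumor_16713, at 1.52 CPM.

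Other measures moved with the tumour group too. The counts of called markers are to be read beside the 24.3% of all genes that rose and the 21.9% that fell in tumours against WT. All 20 proliferation genes rose, from a summed 26.1 to 68.3 CPM in WT animals of 150 dpi to 680 to 3677 CPM in tumours. Of the neuron markers 11 of 12 fell, from 8579 to 11906 CPM down to 315 to 1600 CPM. Of the microglia and macrophage markers 13 of 14 rose, from 173 to 251 CPM to 402 to 1410 CPM, and 11 of 14 OPC markers rose. Of the astrocyte markers 7 rose and 3 fell of 12, of the oligodendrocyte markers 1 rose and 6 fell of 12, and of the endothelial and pericyte markers 0 rose and 4 fell of 12. Their part in the changes of Trp53, Cdkn2a, Chek2, Atm and Mdm4 was not tested.

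Genes downstream of p53 were called in both directions in tumours, as genes at large were. Of 25 genes known as p53 targets, 24 were tested. Between CKO and WT animals 0 of the 24 were called at 12 or at 90 dpi, where 0.0183% and 0.0489% of all genes were. With so few calls among all genes, a 0 does not set these targets apart. The median log2 change of the targets was 0.05 at 12 dpi, beside 0.03 over all genes, and 0.01 at 90 dpi, beside 0.04. In tumours against WT 4 rose and 6 fell, where 24.3% and 21.9% of all genes did, with a median of -0.07 beside 0.06 over all genes. Gadd45a, a damage-induced growth arrest gene, rose by 1.60 (SE 0.41, adjusted p = 0.0017), from 4.81 ± 4.35 CPM (SD, n = 6) to 14.9 ± 10.6 (SD, n = 7), and the nuclease gene Aen by 1.10 (SE 0.24). Adenylate kinase Ak1 fell by 2.57 (SE 0.22) from 45.4 ± 13.2 to 7.48 ± 3.10 CPM, and the antiproliferative gene Btg2 fell by 1.62 (SE 0.41). Summed over the list, tumours held 685 to 890 CPM and WT animals of 150 dpi 778 to 1019, so the groups overlapped. In tumours against CKO animals of 90 dpi 5 rose and 6 fell, where 26.4% and 22.6% of all genes did. The death receptor gene Eda2r rose by 4.59 (SE 0.92, adjusted p = 8.26e-05) and Gadd45a by 1.39 (SE 0.39), and Ak1 fell by 2.36 (SE 0.21). Cdkn1a, the p21 inhibitor of cyclin kinases and the classic p53 target, fell by 1.94 (SE 0.30, adjusted p = 1.73e-06), from 175 ± 35.6 CPM to 45.3 ± 37.6 (SD, n = 7 each).

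Other genes of the pathway were taken as 3 lists, to be read beside the 24.3% of all genes that rose and the 21.9% that fell in tumours against WT. Of 19 other damage kinases and checkpoint adaptors, 9 rose and 2 fell in tumours against WT, with a median of 0.22 beside 0.06 over all genes. Clspn, the adaptor that lets Atr activate Chek1, rose by 4.83 (SE 0.49) from 0.983 ± 0.695 CPM (SD, n = 6) to 25.7 ± 10.0 (SD, n = 7), and Brca1 rose by 3.02 (SE 0.38). Atrip, the partner of Atr, and Trp53bp1 fell by 0.66 and 0.45. Of 13 genes of the Cdkn2a locus and its regulators, 4 rose and 1 fell, with a median of 0.25. Cdkn2b, the neighbour of Cdkn2a that encodes the related inhibitor Ink4b, rose by 3.60 (SE 0.76, adjusted p = 0.00017), from 1.40 ± 1.17 to 16.4 ± 14.8 CPM, E2f3 rose by 1.54 (SE 0.26), and the Polycomb gene Cbx7, a repressor of the locus, fell by 1.33 (SE 0.19) from 39.5 ± 7.49 to 15.7 ± 6.05 CPM. Of 22 other regulators of p53, 6 rose and 6 fell, shares near those of all genes, with a median of -0.03. Mybbp1a rose by 1.40 (SE 0.19), the p53 family gene Trp63 by 2.31 (SE 0.88), Ppp1r13b, which steers p53 to death genes, fell by 2.40 (SE 0.22), and the acetyltransferase gene Crebbp fell by 0.70 (SE 0.21). None of these 3 lists had a gene called between CKO and WT animals at 12 or 90 dpi, where 0.0183% and 0.0489% of all genes were called.

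The genes most like each of the 7 were sought over the 36 animals with at least 1000000 counts, by Pearson's r of log2 CPM among 8170 genes above the median level. These animals include the 7 tumours, which stand apart, and share library preparation and scaling, so r is also given over the 29 animals without a tumour. Cdkn2a was most like Ccnd1, which encodes cyclin D1, at 0.96 with tumours and 0.76 without. Most animals without a tumour had 0 counts of Cdkn2a. The highest of them, CKO_20647 at 1.90 CPM, owed it to a library whose pair held 0 counts. The r values of Cdkn2a without tumours therefore rest on few counts. Chek2 was most like the histone gene Hist1h1e, at 0.89 and 0.56, Trp53 like Wdr83os, at 0.85 and 0.76, and Mdm4 like Cdc37l1, at 0.79 and 0.72. Atm was most like Ezh2, at 0.75 and 0.32, Mdm2 like Siah1a, at 0.68 and 0.52, and Trp73 like Syf2, at 0.61 and 0.57. Among the 7, the closest pair was Cdkn2a with Chek2, at 0.79 with tumours and 0.15 without.

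In small libraries the 7 genes were read differently. Chek2 was detected, meaning an expected count above 0, in 192 of 192, Mdm4 in 166, Mdm2 in 165 and Trp53 in 148. Atm was detected in 14, Trp73 in 6 and Cdkn2a in 4. Where a gene was missed in all 40 pool-and-split libraries of 12 dpi, as Cdkn2a and Trp73 were, the exact 95% interval reaches a share of 8.81% of libraries. By median CPM, Mdm4, Mdm2 and Trp53 kept their order from bulk to small libraries. Chek2 lay below all of these and Atm in bulk libraries and above them all in small ones. Atm lay above Trp53 in bulk and below it in small libraries. The bulk medians here cover all 48 libraries, WT and tumours included, and the small ones CKO cells of 12 and 90 dpi. The median of Atm was 0 CPM in small and 45.0 in bulk libraries, and that of Trp53 0.771 and 30.0, while that of Chek2 was 28.7 and 5.21. Mdm2 fell from a median of 89.3 in bulk to 15.0 CPM in small libraries, and Mdm4 from 275 to 22.2. The chemistry differed, bulk libraries being made by linear T7 amplification and shearing and small ones by PCR and tagmentation, so cell number, capture and chemistry cannot be told apart.

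**Figure D4:**
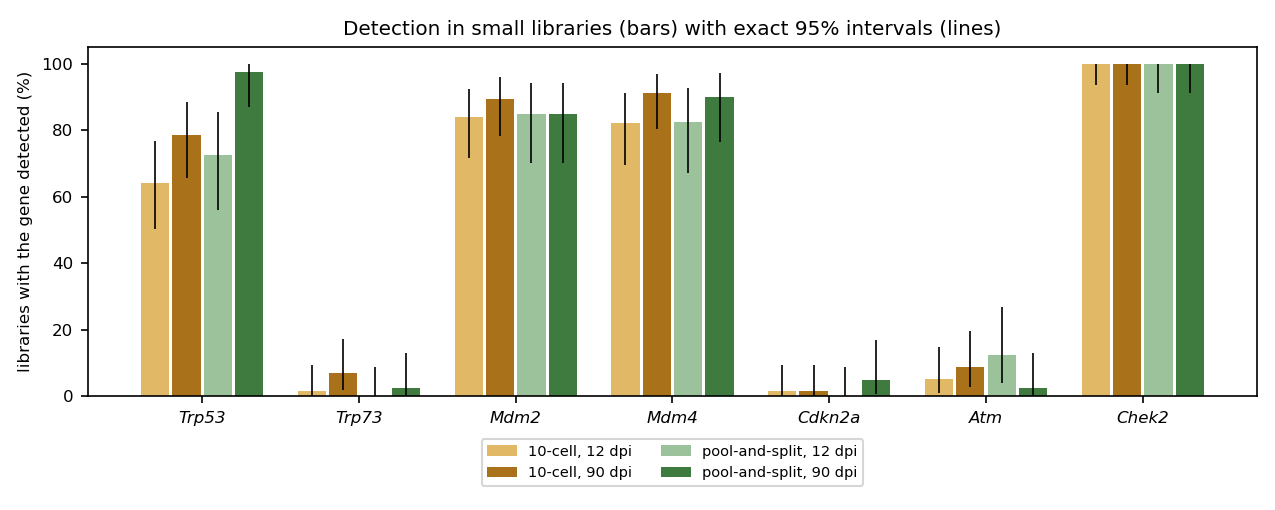
Share of small libraries with each gene detected (bars, in %, from 0) with exact 95% binomial intervals (lines), for 10-cell and pool-and-split libraries at 12 and 90 dpi. Chek2 is at 100% in every class, Trp53 runs from 64.3% to 97.5%, and Atm, Trp73 and Cdkn2a stay at or below 12.5%.

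Trp53 was detected in 36 of 56 10-cell libraries at 12 dpi (64.3%, exact 95% binomial interval 50.4% to 76.6%) and in 44 of 56 at 90 dpi (78.6%, 65.6% to 88.4%). In pool-and-split libraries it was detected in 29 of 40 (72.5%, 56.1% to 85.4%) and 39 of 40 (97.5%, 86.8% to 99.9%). The intervals treat libraries as independent, although those of a set may share animals. Levels were uneven: the median of the 10-cell libraries of 12 dpi was 0.226 CPM and the highest library held 253 CPM. Summed over the 4 sets of a kind and time, named by sex and number, Trp53 held 17.5, 0.708, 16.4 and 4.74 CPM in 10-cell sets of 12 dpi and 7.66, 11.7, 2.44 and 14.0 in those of 90 dpi. These overlapped, with a log2 difference of -0.36 (SE 1.05). In pool-and-split sets Trp53 held 0.597, 1.18, 2.17 and 0.713 CPM at 12 dpi and 5.71, 19.0, 1.56 and 1.66 at 90 dpi, which also overlapped, with a log2 difference of 1.84 (SE 1.32).

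Chek2 was the only one of the 7 whose sets of 12 and 90 dpi did not overlap. In 10-cell sets it held 33.5, 14.3, 20.0 and 17.4 CPM at 12 dpi and 42.2, 66.6, 37.7 and 40.4 at 90 dpi, in the order female 1, female 2, male 1, male 2. In pool-and-split sets it held 27.1, 28.1, 26.9 and 26.5 CPM at 12 dpi and 63.7, 116, 89.5 and 72.5 at 90 dpi. All sets of 90 dpi lay above all sets of 12 dpi, as they did for 5.29% of all genes in 10-cell sets and 4.01% in pool-and-split sets. By edgeR 0 of the 6 genes tested in 10-cell sets and 0 of the 4 tested in pool-and-split sets were called, beside 0% of all genes in each. The Chek2 log2 change was 0.85 (SE 0.50, adjusted p = 0.741) in 10-cell sets and 1.52 (SE 0.58, adjusted p = 0.604) in pool-and-split sets. At an unadjusted p under 0.05 there were 1034 genes of 14500 and 1050 of 13408. DESeq2 called 706 and 977 genes, Chek2 among them in pool-and-split sets only, at 1.47 (adjusted p = 0.0119). In bulk CKO animals Chek2 had no called change over the same times, with a log2 difference of -0.37 (SE 0.27) from 12 to 90 dpi. The Chek2 values of small libraries were not whole in 182 of 192. How many of these counts came from stretches shared with other genes was not tested, so the set values may not be of Chek2 alone. Mdm2 and Mdm4 overlapped between times in both kinds, with log2 differences of -0.34 and 0.05 in 10-cell sets and 0.13 and -0.62 in pool-and-split sets.

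**Figure D5:**
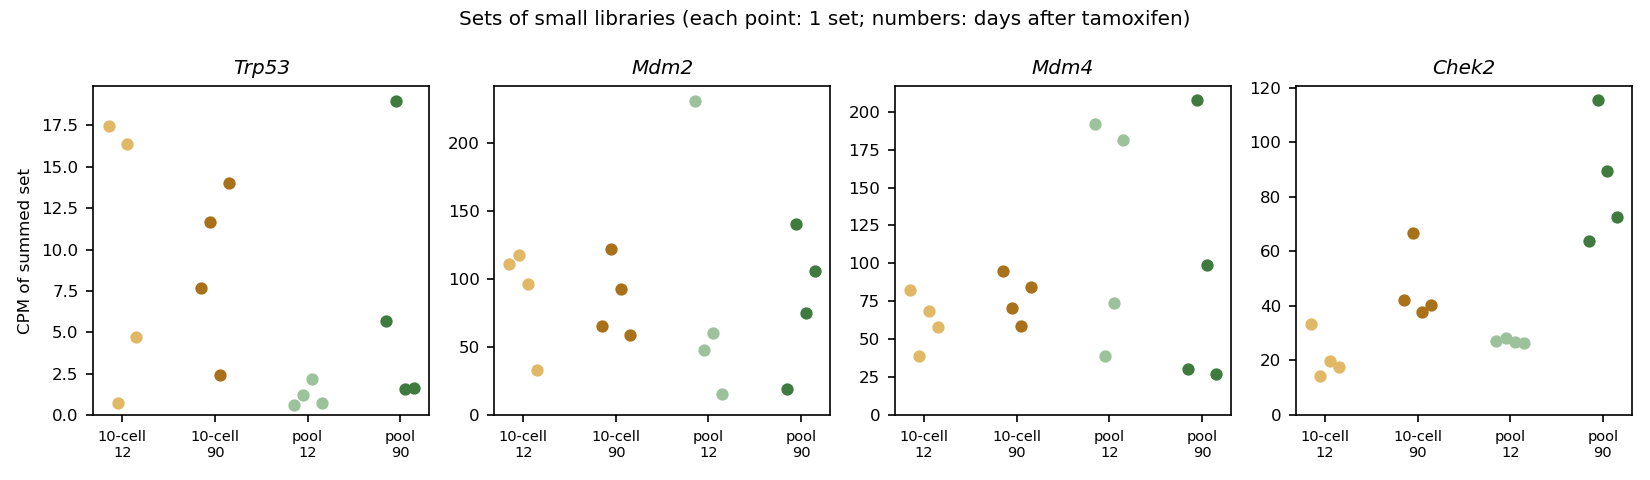
CPM of Trp53, Mdm2, Mdm4 and Chek2 summed over each set of small libraries (points, vertical axes from 0, linear) for 10-cell and pool-and-split sets at 12 and 90 dpi. The 4 sets of each kind overlap between times for Trp53, Mdm2 and Mdm4 and do not for Chek2, where the pool-and-split sets go from 26.5 to 28.1 CPM up to 63.7 to 116.

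The 10-cell design asks whether a gene varies more between groups of 10 cells than between technical splits of a pool. Trp53, Mdm2, Mdm4 and Chek2 were detected often enough for this test, which compared deviations from the set median of log2(CPM + 1). The test took each library as a replicate, with terms for kind and sex and none for the set. Libraries of a set may share animals, so the SEs and p-values may be too small. At 12 dpi 0 of these 4 were called, beside 0.0252% of all genes tested, and at 90 dpi 0 of 4, beside 0.639%. The excess of Chek2 was 0.35 with an SE of 0.17 at 12 dpi (limma, unadjusted p = 0.0446, adjusted p = 0.510) and 0.35 with an SE of 0.15 at 90 dpi (limma, unadjusted p = 0.0225, adjusted p = 0.268), and the times were not compared by a test. The excess of Mdm2 was 0.71 (SE 0.40) and 0.22 (SE 0.42), that of Trp53 0.45 (SE 0.30) and 0.32 (SE 0.25), and that of Mdm4 -0.27 (SE 0.40) and -0.28 (SE 0.39). The pool-and-split controls themselves deviated by a mean of 2.64 for Mdm4 and 2.06 for Mdm2 at 12 dpi, against 0.545 for Chek2 and 0.568 for Trp53. On this scale the inhibitors deviated most of these 4. The median of Trp53 in those libraries was 0.448 CPM, below the pseudocount of 1, which holds its deviation down. Its place in this order therefore does not measure technical spread alone.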

How the data were processed

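Expected counts per gene were deposited by the authors, with reads aligned to GRCm38 with Bowtie2 and estimated with RSEM, per the submitters' processing notes. The 7 genes and all gene lists were chosen with earlier results of these data known. For the fits, both libraries of 1 animal, or all libraries of 1 set, were summed and rounded. CPM of bulk animals and of their library pairs used TMM-scaled totals. CPM of small libraries and of sets, and the bulk medians set beside small libraries, used plain totals. Bulk groups were tested with edgeR 4.0.16 (quasi-likelihood, R 4.3.3) in 1 fit of 37 animals with sex as a covariate, after a filter of at least 10 counts in a group's size of animals and 15 in all, with Benjamini-Hochberg adjustment over all genes tested. Sets were tested likewise. Spread was tested with limma 3.58.1 on single libraries, for genes detected in at least 50% of libraries (pseudocount 1). From each list at most the 2 largest rises and 2 largest falls were named. Fits were tested on simulated data. Alternatives were DESeq2 1.42.0, RLE scaling, other filters and pseudocounts, no sex term, the compared groups alone, the deepest library per animal and leaving out each animal or set. The 92 spike-ins were left out. Bulk animals are separate mice; the labels do not say whether sets are, so their p-values may measure technical spread. A transcript sequence is not reported here.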

Additional observations from a re-analysis of the deposited data

Results flagged for a closer look

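A single sample lay far from the rest of its group, by Dixon's 95% criterion, in 16 of 67 groups of values; chance gives about 1 in 20, and many of these groups held mostly 0. In bulk animals Cdkn2a was high in CKO_20647 at 90 dpi, 1.90 CPM against a next value of 0.199, in CKO_22208 at 12 dpi, 0.176 against 0.0425, and in WT_22178 at 12 dpi, 0.351 against 0. Trp73 was high in Tumor_21256 at 3.66 CPM, next 0.754, in CKO_22149 at 90 dpi at 1.23, next 0.343, and in WT_22064 at 0.817, next 0. Mdm2 was high in CKO_21725 at 131 CPM, next 91.1. Trp53 was low in WT_21167 at 9.48 CPM, next 25.5, the animal with 93694 counts.

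Among sets of small libraries, Chek2 was high in the 10-cell set female 2 of 90 dpi at 66.6 CPM, next 42.2. Atm was high in the 10-cell set male 1 of 90 dpi at 10.6 CPM, next 0.275, and in the pool-and-split set female 2 of 90 dpi at 0.0277, next 0. Cdkn2a stood out at 0.415 CPM in the pool-and-split set female 2 of 90 dpi, next 0.0326, and at 0.0164 and 0.0162 in the 10-cell sets male 1 of 12 dpi and female 2 of 90 dpi, next 0 in both. Trp73 stood out at 2.19 CPM in the pool-and-split set male 2 of 90 dpi and at 2.63 in the 10-cell set female 1 of 12 dpi, next 0 in both.

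The genotype difference of Chek2 differed between 90 and 150 dpi by 1.18 on the log2 scale, by the interaction test.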

How the results depend on the processing

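The direction of every called value of the 7 genes held under every alternative, and 2800 of 2840 recomputed single-gene values kept their side of the threshold. Most of these were of comparisons not called in the main fits, so this share says little about the calls. Atm against WT lost its call in 14 of 37 fits leaving out 1 animal and 4 of 7 other settings. Mdm4 against CKO of 90 dpi lost it in 2 of 37 and 5 of 7. The calls of Cdkn2a and Chek2 in tumours against WT held wherever they were tested; a minimum mean of 10 CPM left both out. Of 5 genes called in tumours against WT, 3 of 4 tested were called with that minimum and 2 of 6 in the compared groups alone, where Trp53 (0.73, adjusted p = 0.0572), Mdm4 (-0.37, 0.121) and Atm (0.57, 0.0918) were lost; against CKO of 90 dpi, 2 with that minimum. Leaving out each animal gave 4 to 6 in both. For the change of the genotype difference from 90 to 150 dpi the 1 call, Chek2, became 0 without a filter, with that minimum or with the deepest libraries, and leaving out each animal gave 0 to 2. In pool-and-split sets DESeq2 called 1 of the 7 genes. RLE scaling moved the median of all genes in tumours against WT from 0.06 to 0.22 and the share of calls that were rises from 52.6% to 62.1%; against CKO that share went from 53.8% to 63.5%, and for the change from 90 to 150 dpi from 47.2% to 57.3%.

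Over all genes, calls between CKO and WT at 12 dpi numbered 3, but 18 by DESeq2, 1 with the minimum of 10 CPM, 92 in the compared groups alone and 2 to 6 leaving out each animal; at 90 dpi 8, but 21, 4 and 4 to 9 leaving out each animal. Between 12 and 90 dpi in CKO animals they numbered 0, but 4 by DESeq2, 1 in the groups alone and 0 to 1 leaving out each animal; in WT animals 1, but 13, 295 and 0 to 1. For WT of 150 against 90 dpi they numbered 3, but 20 by DESeq2, 5 without the sex term and 1 to 6. For the change of the genotype difference from 12 to 90 dpi they numbered 0, but 9 by DESeq2, 1 without a filter and 0 to 1. In sets they numbered 0, but 706 (10-cell) and 977 (pool-and-split) by DESeq2, and 1 without a filter in pool-and-split sets. In the spread test 2 genes at 12 dpi became 11 with a pseudocount of 0.1, 0 with 5 and 0 to 4 leaving out each set; 62 at 90 dpi became 19, 23, 36 or 38 leaving out 1 set. The cause was not tested.

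Set numbers did not pair 12 with 90 dpi: same-numbered sets correlated at -0.0307 to 0.0159 (10-cell) and -0.0294 to -0.0062 (pool-and-split), and with a replicate block 0 of the 7 genes and 0 genes were called in both kinds. Depth limits Trp73 and Cdkn2a, which gave 0 to 55 counts per group without a tumour, and WT_21167.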
